A study of Mus musculus with 70 samples.

Results

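The 5 mouse miRNAs described here are mmu-miR-219a-5p, mmu-miR-219a-2-3p, mmu-miR-219a-1-3p, mmu-miR-338-3p and mmu-miR-338-5p, written below without the prefix. They are the mature products of the miR-219 and miR-338 hairpins that are known from oligodendrocytes, the myelin-forming cells of the brain. All were taken by name from 1882 miRNA features of a small RNA count table, and all 5 were found and passed the filter on low values. Whole brains of wild-type (WT) C57BL/6 mice of both sexes were taken on day 6 after birth (P6), on day 15 (P15) or at an age of 8 weeks (8W), and the labels name no treatment. Each brain was dissociated, and cells captured on a dish coated with an antibody to CD45, a surface protein of leukocytes, are called microglia. The remaining CD45- fraction is named bulk cells here and mixes neurons, oligodendrocytes, astrocytes and other cells. One library was made from each fraction of each mouse, so that a group is a mixed cell fraction and not purified oligodendrocytes. P6 female mouse 6 was not used in either fraction (its values are in the closing section), which left 68 libraries of 34 mice: 10 mice at P6 (4 female, 6 male), 12 at P15 and 12 at 8W (6 of each sex).

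A miRNA is cut from 1 arm of a folded precursor, the hairpin, and represses messenger RNAs through its seed, the bases near its 5′ end. In the oligodendrocyte lineage, miR-219 and miR-338 are known to be switched on as precursor cells stop dividing and mature, and to repress factors that keep precursors immature. The suffixes 5p and 3p name the hairpin arm. miR-219a-5p comes from both the Mir219a-1 and Mir219a-2 hairpins, whereas miR-219a-1-3p and miR-219a-2-3p are the opposite arms of one hairpin each, and the Mir338 hairpin gives miR-338-5p and miR-338-3p.

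The mature sequences are shown because the arms of one hairpin are read apart by sequence, whereas the miR-219a-5p sequence is the same at both of its loci. They were taken from RefSeq (GRCm38.p6), and capitals mark the seed, bases 2 to 8.

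miR-219a-5p: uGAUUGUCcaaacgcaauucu
miR-219a-1-3p: aGAGUUGCgucuggacgucccg
miR-338-3p: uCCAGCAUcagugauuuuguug
miR-338-5p: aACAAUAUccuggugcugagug

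The 4 seeds differ, and 0 other mouse miRNAs in the RefSeq table shared any of them. The Mir219a-2 hairpin lies at chr2:29845631-29845727 on the minus strand (GRCm38), 629 bases from Urm1. The Mir219a-1 hairpin lies at chr17:34024983-34025092 on the minus strand, overlaps an exon of the long noncoding RNA Gm26940 and is 303 bases from Ring1. The Mir338 hairpin lies at chr11:120014765-120014862 on the minus strand, in an intron of Aatk, a kinase gene transcribed in the same direction. Each has a hairpin annotated on the opposite strand (Mir219b, Mir219c and Mir3065).

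The count table gave between 1678034 and 8747394 counts per library, and levels are given as CPM, the count scaled to a common library total. A floor of 3 counts corresponded to 0.343 to 1.79 CPM, which covers counting error only. miR-219a-5p, miR-219a-2-3p, miR-338-3p and miR-338-5p had at least 106 counts in every library, whereas miR-219a-1-3p had 0 to 85 counts, so its values are the least precise. The fractions were checked against marker miRNAs. The 5 myeloid markers (miR-223-3p, miR-142a-3p, miR-142a-5p, miR-146a-5p and miR-511-3p) summed to 18586 to 57022 CPM in microglia and 201 to 905 CPM in bulk cells, and miR-511-3p was at 0 in some bulk libraries at each age. Microglial libraries also held the 7 neuronal markers (miR-124-3p, miR-128-3p, miR-129-5p, miR-137-3p, miR-138-5p, miR-153-3p and miR-218-5p), at 14873 to 55234 CPM against 55634 to 174986 CPM in bulk cells, and the 4 erythroid markers, at 8113 to 107132 CPM against 1730 to 10675 CPM. Lists of 2 endothelial markers and of 4 markers of mural cells and fibroblasts were read too, and are given with the microglia to bulk percentages.

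In bulk cells, the 4 abundant miRNAs rose together between P6 and P15. miR-219a-5p, whose targets include regulators of precursor proliferation, was measured at 116 to 571 CPM at P6 (median 315), 1423 to 5078 CPM at P15 (median 3625) and 2836 to 6788 CPM at 8W (median 4924). Every P15 and 8W library was above every P6 library, while the P15 and 8W ranges overlapped. miR-219a-2-3p, the opposite arm of the Mir219a-2 hairpin, stood at 123 to 999 CPM at P6 (median 560), 3667 to 7803 CPM at P15 (median 6572) and 3310 to 8778 CPM at 8W (median 6365). Its P15 and 8W ranges overlapped.

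miR-338-3p, the more abundant arm of the Mir338 hairpin, was at 658 to 1349 CPM at P6 (median 1030), 3662 to 9703 CPM at P15 (median 7386) and 10021 to 19842 CPM at 8W (median 14805). Its 3 ages did not overlap. At 8W it made up 1.46% of all bulk counts and ranked 15 of 1882 features, up from rank 84 at P6. miR-338-5p, the opposite arm, was at 75.2 to 226 CPM at P6 (median 151), 571 to 1497 CPM at P15 (median 1242) and 1331 to 2502 CPM at 8W (median 1840), with overlap between the last 2 ages in CPM. As log2 CPM scaled by TMM, the normalisation of the tests below, those 2 ages did not overlap. miR-219a-1-3p, from the other miR-219 locus, moved in the opposite direction, from 6.08 to 12.1 CPM at P6 (median 7.23) through 0 to 5.58 CPM at P15 (median 3.31) to 0.48 to 2.16 CPM at 8W (median 1.3). Every P6 library was above every later bulk library for this miRNA.

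**Figure D1:**
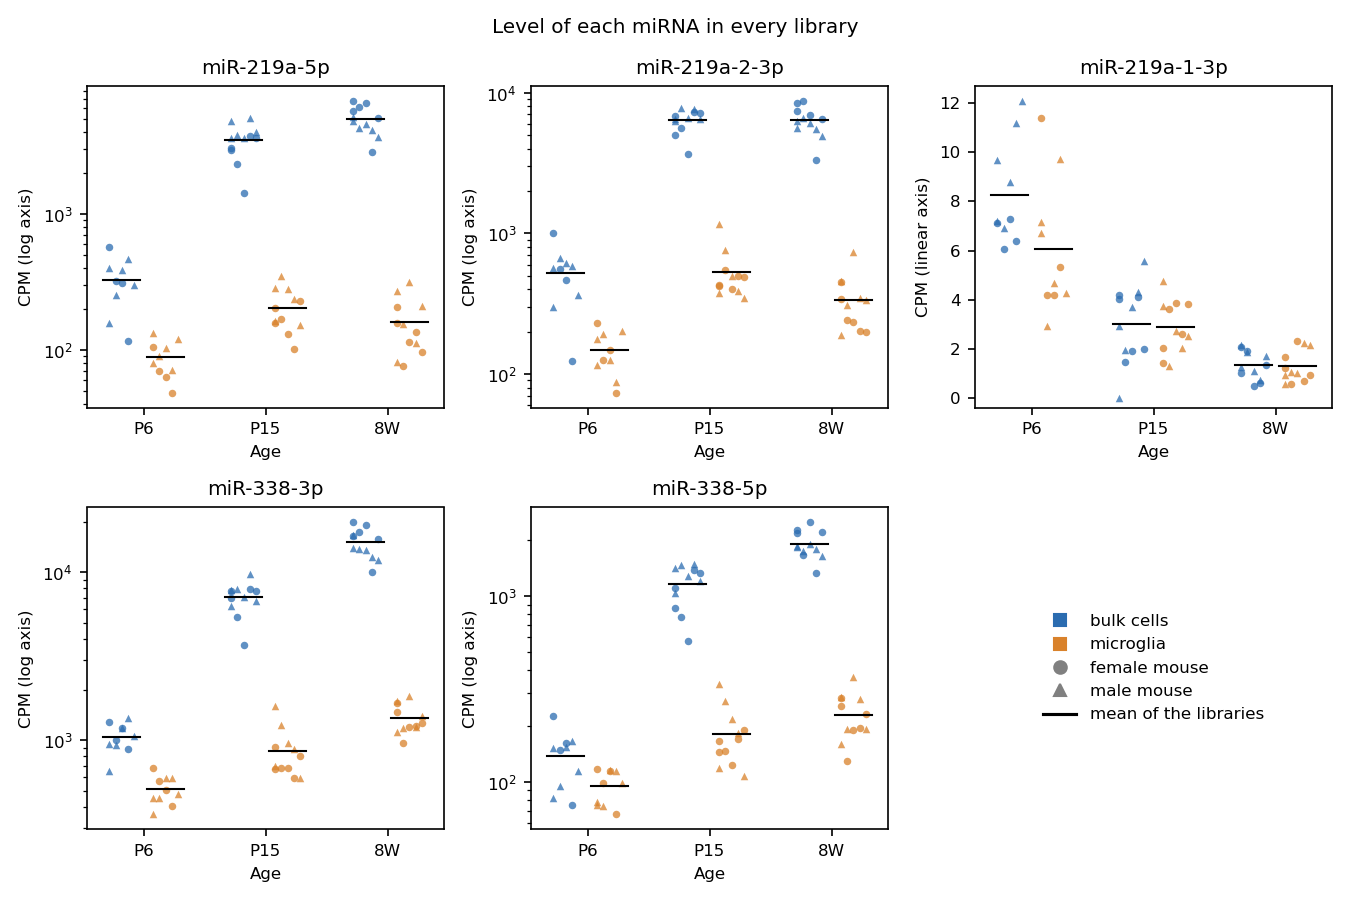
CPM of each miRNA in each of the 68 libraries by age and fraction, with a log axis except for miR-219a-1-3p, circles for female and triangles for male mice and a bar at the mean. Bulk libraries of miR-338-3p climb from 658 to 1349 CPM at P6 to 10021 to 19842 CPM at 8W, whereas miR-219a-1-3p falls from 6.08 to 12.1 CPM to 0.48 to 2.16 CPM.

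These differences were tested with limma-voom and TREAT, which asks whether a change exceeds 2-fold (a log2 fold change of 1), with Benjamini-Hochberg adjusted p-values over 1072 features. From P6 to P15, 4 of the 5 miRNAs were higher in bulk cells, where 1.87% of all features tested were called higher and 3.54% in either direction. miR-219a-2-3p rose 12.4-fold (log2 fold change 3.63 ± 0.19, SE, adjusted p = 2.82e-18) and miR-219a-5p rose 10.1-fold (3.34 ± 0.18, adjusted p = 6.22e-18). miR-338-5p rose 7.59-fold (2.92 ± 0.14, adjusted p = 4.39e-18) and miR-338-3p rose 5.99-fold (2.58 ± 0.12, adjusted p = 5.8e-18). miR-219a-1-3p had a log2 fold change of −1.80 ± 0.28 that did not pass the threshold (adjusted p = 0.078).

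From P15 to 8W, of the 5 miRNAs only miR-338-3p was called in bulk cells, 2.95-fold higher (log2 fold change 1.56 ± 0.11, adjusted p = 1.43e-05), in a comparison in which 11.0% of features were called, 6.06% higher and 4.94% lower. miR-338-5p had a log2 fold change of 1.22 ± 0.12 (adjusted p = 0.266), miR-219a-5p of 1.0 ± 0.15 (adjusted p = 1; called with the smaller of its 2 table entries, 2.01, adjusted p = 1.54e-08) and miR-219a-2-3p of 0.44 ± 0.17 (adjusted p = 1), and the differences among these estimates were not tested. Scaled to library totals alone, miR-338-3p had a log2 fold change of 1.09 and was not called (adjusted p = 0.965), and the median over all 1072 features was −0.23 instead of 0.24. Without the 2-fold requirement, the rises of miR-338-3p, miR-338-5p and miR-219a-5p had limma adjusted p of 6.34e-21, 2.3e-13 and 8.7e-08. That of miR-219a-2-3p had 0.0224, but its log2 fold change was −0.03 with library totals alone. This setting called 543 of all 1072 features.

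Over the whole interval from P6 to 8W, all 5 miRNAs were called in bulk cells, where 25.7% of features were called, 13.2% higher and 12.4% lower. miR-219a-5p rose 20.2-fold (log2 fold change 4.34 ± 0.18, adjusted p = 1.4e-26; 37.3-fold with the smaller of its 2 table entries, described below) and miR-219a-2-3p 16.8-fold (4.07 ± 0.19, adjusted p = 5.44e-23). miR-338-3p and miR-338-5p each rose 17.7-fold (4.14 ± 0.12 and 4.15 ± 0.14, adjusted p = 8.44e-35 and 3.36e-30). miR-219a-1-3p fell 4.66-fold (−2.22 ± 0.31, adjusted p = 0.000595). In a mixed fraction, more cells of a type and more of a miRNA per cell cannot be told apart.

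**Figure D2:**
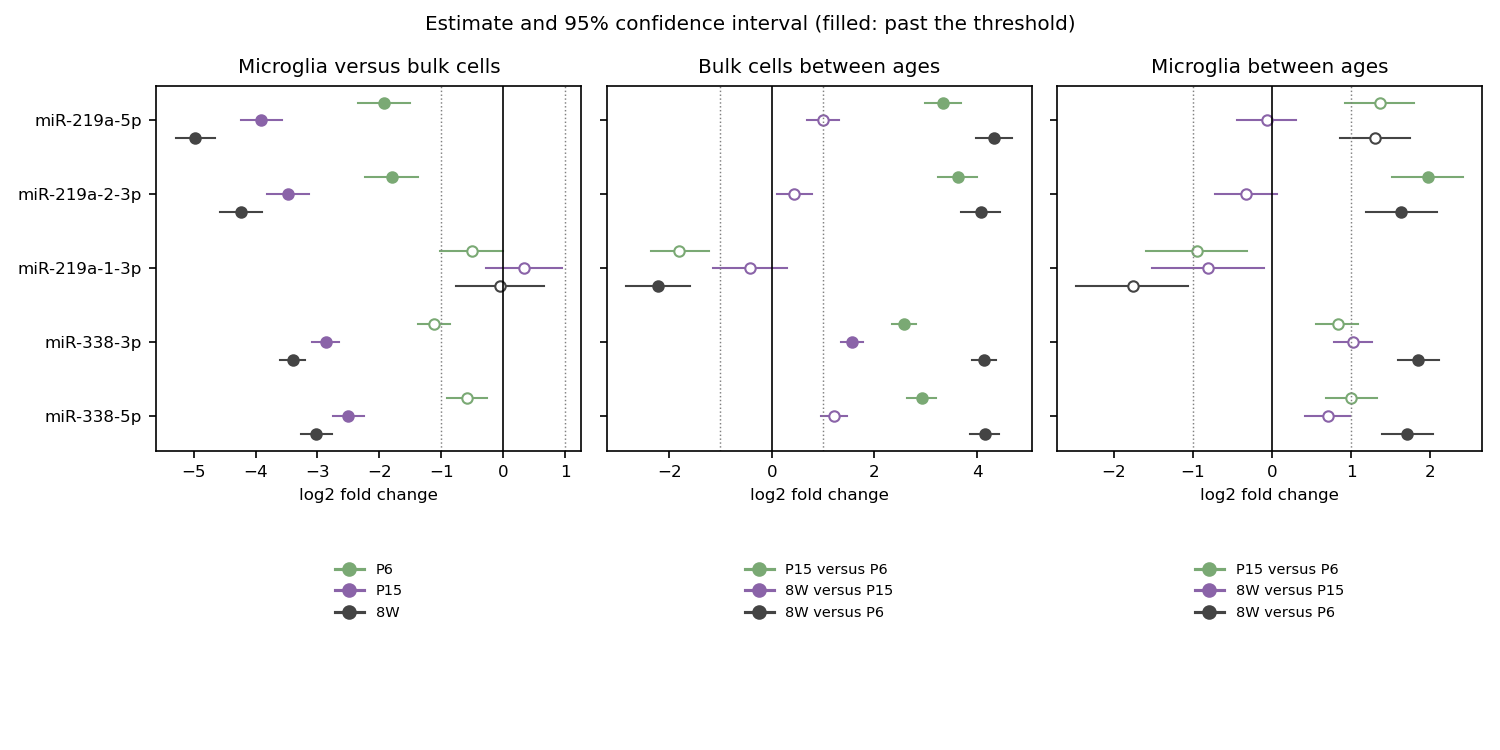
Log2 fold changes with 95% confidence intervals for microglia against bulk cells at each age (left), bulk cells between ages (middle) and microglia between ages (right). Filled points passed the threshold, and dotted lines mark a 2-fold change. miR-219a-5p lies at −1.93, −3.91 and −4.97 in microglia against bulk cells at P6, P15 and 8W, while miR-219a-1-3p stays between −0.51 and 0.34.

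In microglia the levels were as follows. miR-219a-5p was at 48.3 to 133 CPM at P6 (median 84.6), 101 to 349 CPM at P15 (median 187) and 76 to 316 CPM at 8W (median 146). miR-219a-2-3p was at 73.3 to 230 CPM at P6 (median 138), 345 to 1172 CPM at P15 (median 461) and 188 to 737 CPM at 8W (median 322). Its P15 libraries were all above its P6 libraries, and miR-219a-5p overlapped between all pairs of ages. miR-338-3p was at 361 to 684 CPM at P6 (median 493), 596 to 1587 CPM at P15 (median 752) and 959 to 1838 CPM at 8W (median 1240). It was the most abundant of the 5 in microglia, and its P6 and 8W libraries did not overlap. miR-338-5p was at 66.7 to 117 CPM at P6 (median 98.5), 108 to 336 CPM at P15 (median 168) and 129 to 368 CPM at 8W (median 214). miR-219a-1-3p was at 2.93 to 11.4 CPM at P6 (median 5), 1.31 to 4.74 CPM at P15 (median 2.66) and 0.57 to 2.33 CPM at 8W (median 1.02).

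Ordered by mean CPM, miR-219a-5p ran from P6 microglia (88.4) through 8W microglia (161), P15 microglia (205) and P6 bulk cells (328) to P15 bulk cells (3499) and 8W bulk cells (4963). Only the step from P6 to P15 bulk cells separated neighbours whose ranges did not overlap. For miR-219a-2-3p the order was P6 microglia (148), 8W microglia (337), P6 bulk cells (524), P15 microglia (527), 8W bulk cells (6363) and P15 bulk cells (6422), again with a single step between ranges apart, from P15 microglia to 8W bulk cells. For miR-338-3p it was P6 microglia (510), P15 microglia (859), P6 bulk cells (1047), 8W microglia (1350), P15 bulk cells (7090) and 8W bulk cells (15012), and the last 2 steps separated ranges. For miR-338-5p it was P6 microglia (95.3), P6 bulk cells (138), P15 microglia (181), 8W microglia (230), P15 bulk cells (1161) and 8W bulk cells (1911), with ranges apart only from 8W microglia to P15 bulk cells. miR-219a-1-3p was ordered by age and not by fraction, from 1.27 CPM in 8W microglia and 1.35 CPM in 8W bulk cells through 2.86 and 3.01 CPM at P15 to 6.05 and 8.28 CPM at P6, and all neighbours overlapped.

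Microglia and bulk cells of the same mice were then compared at each age. At P6, 2 of the 5 miRNAs were called lower in microglia, where 10.6% of features were called lower and 28.1% in either direction. miR-219a-5p was 3.81-fold lower (log2 fold change −1.93 ± 0.21, adjusted p = 0.000123; not called with its smaller entry, −1.35, adjusted p = 0.125) and miR-219a-2-3p 3.49-fold lower (−1.80 ± 0.22, adjusted p = 0.00123), each in 10 of 10 mice. miR-338-3p (2.16-fold, −1.11 ± 0.13, adjusted p = 0.44) and miR-338-5p (−0.58 ± 0.16, adjusted p = 1) were lower in 10 of 10 mice too, but were not called against the 2-fold limit. Without that limit, limma gave adjusted p of 8.26e-12 and 0.000948 for them, and called 749 of all 1072 features.

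At P15, 4 of the 5 were called lower in microglia, against 18.7% of features lower and 39.9% in either direction. miR-219a-5p was 15-fold lower (−3.91 ± 0.16, adjusted p = 1.58e-25), miR-219a-2-3p 11.1-fold (−3.47 ± 0.17, adjusted p = 7.58e-21), miR-338-3p 7.3-fold (−2.87 ± 0.11, adjusted p = 8.05e-25) and miR-338-5p 5.66-fold (−2.50 ± 0.13, adjusted p = 7.4e-17). At 8W the same 4 were called lower, against 23.7% of features lower and 44.9% in either direction. miR-219a-5p was 31.3-fold lower (−4.97 ± 0.16, adjusted p = 5.8e-33), miR-219a-2-3p 18.9-fold (−4.24 ± 0.17, adjusted p = 1.25e-26), miR-338-3p 10.6-fold (−3.40 ± 0.10, adjusted p = 1.17e-31) and miR-338-5p 8.1-fold (−3.02 ± 0.12, adjusted p = 1.37e-23). The 4 were lower in microglia in 12 of 12 mice at both ages. miR-219a-1-3p was not called at any age, with log2 fold changes of −0.51 ± 0.26 at P6, 0.34 ± 0.31 at P15 and −0.06 ± 0.36 at 8W, and without P15 male mouse 6, whose bulk library held 0 counts, the P15 value was −0.15.

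Within single mice, microglial miR-219a-5p was 15.1% to 50.1% of the bulk level at P6 (median 30.1%), 2.7% to 9.28% at P15 (median 6.62%) and 1.26% to 6.94% at 8W (median 2.91%). The P6 values did not overlap those of later ages. miR-219a-2-3p had medians of 30.3%, 7.17% and 4.99%, miR-338-3p of 48.1%, 11.1% and 8.79%, and miR-338-5p of 73.3%, 15.8% and 11.5%. The summed neuronal list, measured in the same way, had medians of 34.3% (24.2% to 47.4%), 24.7% (11.7% to 31.6%) and 15.5% (9.65% to 31.8%). Most of that sum is miR-124-3p, which had medians of 36.6%, 25.8% and 14.4%, while the other 6 neuronal miRNAs had medians of 22.3% to 31.7% at P6, 15.1% to 32.3% at P15 and 19% to 24.9% at 8W. Among them miR-137-3p had medians of 26%, 25.7% and 24.9%. The endothelial list did not share this order, with medians of 11%, 9.08% and 18.3%, and neither did the list of mural cells and fibroblasts, with 122%, 61.8% and 86.8%. At P6 the median of the neuronal list lay between those of the miR-219a and miR-338 arms, and at P15 and 8W it lay above the median of each of the 4. For single neuronal miRNAs this did not always hold, since miR-138-5p at P15 (15.1%) lay below miR-338-5p (15.8%). How much RNA of other cells the microglial values contain was not tested.

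**Figure D3:**
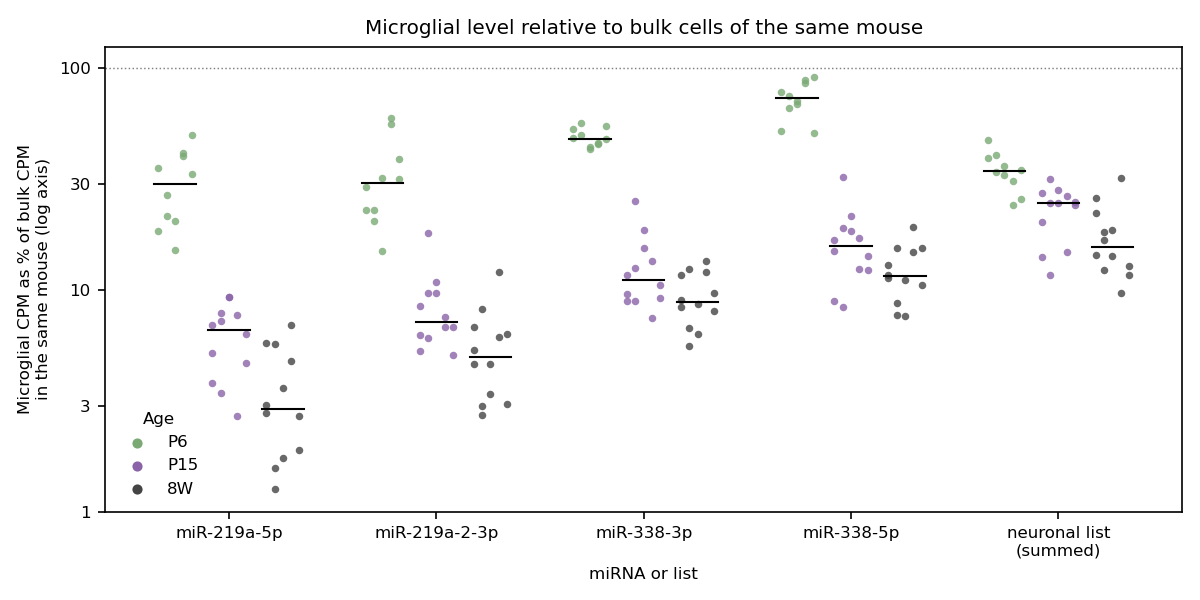
Microglial CPM as a percentage of the bulk CPM of the same mouse for 4 miRNAs and for the sum of 7 neuronal miRNAs, 1 point per mouse, bars at medians, log axis. The median of miR-219a-5p drops from 30.1% at P6 to 2.91% at 8W, and that of the neuronal list, most of which is miR-124-3p, from 34.3% to 15.5%.

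Whether the difference between the fractions changed with age was tested with an interaction term. Between P6 and 8W the microglia to bulk ratio fell for 4 of the 5, where 7.93% of features were called lower and 14.6% in either direction. The ratio fell 8.22-fold for miR-219a-5p (log2 difference −3.04 ± 0.26, adjusted p = 1.54e-09), 5.42-fold for miR-219a-2-3p (−2.44 ± 0.28, adjusted p = 1.92e-05), 4.89-fold for miR-338-3p (−2.29 ± 0.16, adjusted p = 9.84e-10) and 5.41-fold for miR-338-5p (−2.44 ± 0.20, adjusted p = 1.41e-08). Between P6 and P15 it fell for 3 of the 5, where 1.12% of features were called lower and 1.59% in either direction: miR-338-3p (−1.75 ± 0.17, adjusted p = 0.0014), miR-338-5p (−1.92 ± 0.20, adjusted p = 0.0014) and miR-219a-5p (−1.98 ± 0.26, adjusted p = 0.0155). With no filter on low counts miR-219a-5p was not called (−2.02, adjusted p = 0.0532). miR-219a-2-3p had −1.66 ± 0.27 (adjusted p = 0.324). Between P15 and 8W, 0 of the 5 were called by limma with TREAT, where 3.36% of features were (1.49% higher, 1.87% lower). Without the 2-fold requirement 4 of them had unadjusted p from 1.61e-05 to 0.00466 and were called by limma and by edgeR, and 2 by DESeq2. Those settings called 388, 350 and 324 of all 1072 features.

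Ages were then compared within microglia. From P6 to P15 only miR-219a-2-3p was called, 3.9-fold higher (log2 fold change 1.97 ± 0.22, adjusted p = 0.00129), where 2.89% of features were called, 0.746% higher and 2.15% lower. miR-219a-5p had a log2 fold change of 1.36 ± 0.22 (adjusted p = 0.754; 0.69 with its smaller entry, adjusted p = 1), miR-338-5p of 1.0 ± 0.16 and miR-338-3p of 0.83 ± 0.13 (both adjusted p = 1). From P15 to 8W none of the 5 was called by limma with TREAT, where 4.57% of features were (1.77% higher, 2.80% lower), and 3 had an unadjusted p under 0.05 without the 2-fold requirement. With no fold requirement, limma, edgeR and DESeq2 each called miR-338-3p (limma log2 fold change 1.03 ± 0.12, adjusted p = 4.19e-11) and miR-338-5p (0.71 ± 0.14, adjusted p = 3.47e-05), while edgeR and DESeq2 also called miR-219a-1-3p. Those settings called 399, 419 and 442 of all 1072 features. miR-219a-5p had −0.06 ± 0.19, and its sign turned with the filter on low counts.

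From P6 to 8W, 3 of the 5 rose in microglia, where 7.18% of features were called higher, 9.42% lower and 16.6% in either direction. miR-338-3p rose 3.62-fold (1.85 ± 0.13, adjusted p = 9.56e-08), miR-338-5p 3.27-fold (1.71 ± 0.16, adjusted p = 0.000232) and miR-219a-2-3p 3.1-fold (1.63 ± 0.22, adjusted p = 0.0224). miR-219a-5p had 1.30 ± 0.22 (adjusted p = 0.369) and miR-219a-1-3p −1.76 ± 0.35 (adjusted p = 0.0943). The call of miR-219a-2-3p ended when P6 female mouse 6 was included (1.40, adjusted p = 0.193), without 8W female mouse 1 or 8W male mouse 3 (lowest estimate over single mice 1.55), with the entries of each name summed (1.54, adjusted p = 0.0734) and with library totals alone (1.17, adjusted p = 0.675). miR-219a-1-3p was called lower with that mouse included (−1.91, adjusted p = 0.0319), with summed entries (−1.85, adjusted p = 0.0442) and with library totals alone (−2.23, adjusted p = 0.00257), and its change did not pass as different from that in bulk cells (interaction 0.46 ± 0.44, adjusted p = 1). With library totals alone the call of miR-338-5p ended too (1.25, adjusted p = 0.333), and the median over all features was −0.64 instead of −0.17.

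Male and female mice were compared within each age and fraction, and none of the 5 miRNAs was called in any of the 6 comparisons. Their log2 fold changes (male over female) ran from −0.56 to 0.47. Over all features limma with TREAT called 0 of 1072 in each comparison, with 0 to 13 at an unadjusted p under 0.05, and without the 2-fold requirement limma called 0 to 19, edgeR 0 to 22 and DESeq2 0 to 16. In bulk cells the 95% interval for miR-338-3p was −0.53 to 0.20 at P6, −0.28 to 0.32 at P15 and −0.54 to 0.04 at 8W.

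The count table listed miR-219a-5p as 2 entries, and the larger entry was used above. The larger entry stood next to miR-219a-2-3p in the table and the smaller next to miR-219a-1-3p, but neither carried a hairpin name. The stretches of the hairpins that start at the mature sequence are shown because they are the same over that sequence and differ just after it. They were read from the RefSeq hairpins (GRCm38.p6, minus strand), with capitals for the 9 bases that follow the mature sequence.

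Mir219a-2, chr2:29845680-29845709: ugauuguccaaacgcaauucuUGUACGAGU
Mir219a-1, chr17:34025043-34025072: ugauuguccaaacgcaauucuCGAGUCUCU

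The smaller entry was below the larger in every one of the 68 libraries, and the gap between them depended on age. In bulk cells the smaller entry was 37.2% to 67.6% of the larger at P6 (median 40.5%), 38.4% to 46.3% at P15 (median 42.1%) and 79.6% to 83.6% at 8W (median 81.6%). The P15 and 8W ranges were far apart and narrow. In microglia it was 49.5% to 99% at P6 (median 65.1%), 35.4% to 49.1% at P15 (median 43.7%) and 68.6% to 87.5% at 8W (median 77%), on as few as 93 counts of the smaller entry at P6. From P15 to 8W the log2 ratio of the entries rose by 0.97 ± 0.02 (SE) in bulk cells and by 0.84 ± 0.05 in microglia (two-sided permutation test, adjusted p = 8e-05 for both over 36 ratio tests). As CPM, the smaller entry in bulk cells had medians of 132 at P6, 1460 at P15 and 4008 at 8W, and the difference between the entries had medians of 182, 2164 and 868.

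This shift was set against the other names among 22 miRNAs, miR-219a-5p included, that had 2 unequal entries of at least 100 counts each. From P15 to 8W in bulk cells the median log2 ratio of the entries moved by 0.95 for miR-219a-5p and by −0.07 to 0.07 for the other names. Of these, 17 had a smaller entry at a median of 98.2% or more of the larger at both ages, so their ratio had little room to move, and the comparison rests on miR-138-5p (82.4% to 86.6%), miR-92a-3p (72.8% to 69.5%), miR-194-5p (90.1% to 93.3%) and miR-128-3p (96.9% to 95.9%). This comparison was chosen after the values were seen. The choice of entry changed calls of miR-219a-5p. With the smaller entry, bulk cells were 4.01-fold higher at 8W than at P15 (log2 fold change 2.01 ± 0.14, adjusted p = 1.54e-08) in place of 2-fold (1.0 ± 0.15, adjusted p = 1). Microglia against bulk cells at P6 became −1.35 ± 0.19 (adjusted p = 0.125) in place of −1.93, and microglia at 8W against P6 became 1.50 ± 0.20 (adjusted p = 0.0484) in place of 1.30. In bulk cells from P6 to 8W the rise was 37.3-fold with the smaller entry (5.22 ± 0.16, adjusted p = 2.11e-34) in place of 20.2-fold, and the fall of the microglia to bulk ratio was 13.2-fold (−3.72 ± 0.24, adjusted p = 3.27e-15) in place of 8.22-fold. The rise in bulk cells from P6 to P15 was 9.3-fold with the smaller entry, and microglia at 8W were 33.4-fold below bulk cells, so these calls stood with either entry.

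**Figure D4:**
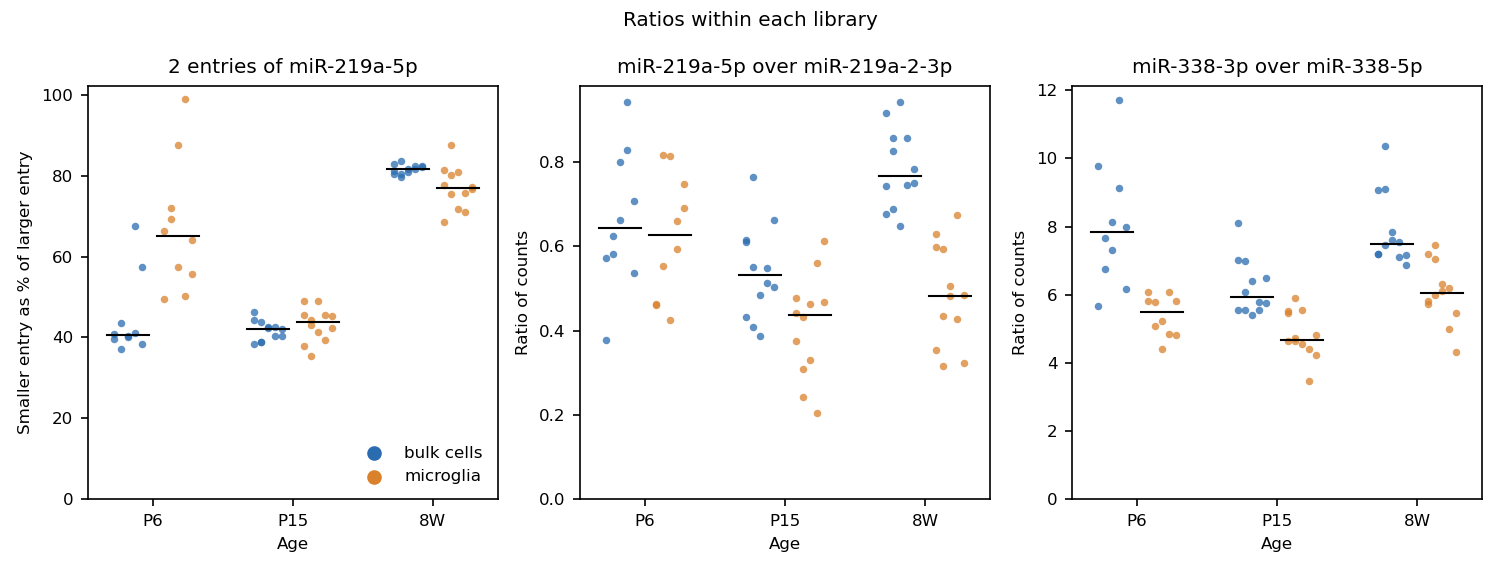
Left: the smaller entry of miR-219a-5p as a percentage of the larger in each library. Middle and right: the ratio of counts of miR-219a-5p to miR-219a-2-3p and of miR-338-3p to miR-338-5p, with bars at medians and axes from 0. Bulk libraries hold a smaller entry at 38.4% to 46.3% of the larger at P15 and at 79.6% to 83.6% at 8W.

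The 2 arms of a hairpin come from 1 transcript, so their ratio compares products of the same precursor. Counts were not corrected for how well each sequence is captured, and only changes of a ratio between libraries are compared. miR-338-3p exceeded miR-338-5p in every library. The geometric mean ratio in bulk cells was 7.86 at P6 (5.67 to 11.7), 6.18 at P15 (5.39 to 8.11) and 7.82 at 8W (6.88 to 10.4). In microglia it was 5.36 at P6 (4.41 to 6.07), 4.78 at P15 (3.47 to 5.9) and 5.99 at 8W (4.32 to 7.46). The ratio was lower in microglia than in bulk cells of the same mouse in all but 1 mouse at each age, by 0.55 ± 0.11, 0.37 ± 0.08 and 0.38 ± 0.05 on the log2 scale (two-sided exact sign-flip permutation test over mice, adjusted p = 0.00703, 0.0033 and 0.00251). In both fractions it was higher at 8W than at P15, by 0.34 ± 0.07 in bulk cells and 0.32 ± 0.09 in microglia (permutation test, adjusted p = 0.000504 and 0.0033).

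The ratio of miR-219a-5p to miR-219a-2-3p had geometric means of 0.644 at P6, 0.53 at P15 and 0.781 at 8W in bulk cells, and of 0.606, 0.391 and 0.471 in microglia. At 8W it was lower in microglia in 12 of 12 mice, by 0.73 ± 0.09 on the log2 scale (exact sign-flip test, adjusted p = 0.00135), and at P15 by 0.44 ± 0.14 in 10 of 12 mice (adjusted p = 0.00921). At P6 the difference did not pass (−0.09 ± 0.12, same test, adjusted p = 0.488), and the ratio was higher in microglia in 5 of 10 mice. In bulk cells the ratio rose by 0.56 ± 0.10 from P15 to 8W (permutation test, adjusted p = 8e-05), whereas in microglia the change of 0.27 ± 0.17 did not pass (adjusted p = 0.156). The numerator is the larger entry of a miRNA with 2 loci, so this ratio and the entry ratio share counts.

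The 3p arms of the miR-219 loci were called in opposite directions in bulk cells from P6 to 8W. Counts of miR-219a-2-3p exceeded those of miR-219a-1-3p by a geometric mean of 57.1 in P6 bulk cells (19.1 to 139) and 24.3 in P6 microglia (8.82 to 62.8). At P15 the ratio was 2540 in bulk cells and 177 in microglia, and at 8W it was 4610 and 249. From P6 to 8W it rose by 6.34 ± 0.33 on the log2 scale in bulk cells and by 3.36 ± 0.36 in microglia, with no overlap between these ages (permutation test, adjusted p = 8e-05 for both). The P15 bulk value rests in part on P15 male mouse 6, where 0.5 was added to a count of 0. At 8W miR-219a-1-3p had 2 to 13 counts per bulk library and 3 to 11 per microglial library, so the size of these ratios is imprecise.

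Hairpins on the opposite strand gave few reads. miR-3065-5p, which overlaps miR-338-3p over 21 bases, reached at most 1.68 CPM in a bulk library, and miR-3065-3p at most 1.27 CPM. In P6 microglia the 2 were detected in 10 of 10 libraries, at 0.596 to 6.58 CPM and 0.36 to 1.79 CPM, on 1 to 17 counts and 1 to 7 counts per library. They were detected in 1 of 10 P6 bulk libraries each. miR-3065-5p was at 0 in 1 of 12 microglial and 7 of 12 bulk libraries at P15 and in 1 of 12 and 5 of 12 at 8W, and miR-3065-3p in 3 of 12 and 11 of 12 at P15 and in 3 of 12 and 10 of 12 at 8W. miR-219b-5p was at 0 in 2 of 10 microglial and 9 of 10 bulk libraries at P6. miR-219b-5p reached at most 3.1 CPM in any library, miR-219b-3p 0.798 CPM, miR-219c-5p 0.856 CPM and miR-219c-3p 0.736 CPM. No fold change or test is given for these miRNAs, because bulk libraries were mostly at 0 and miR-3065-5p and miR-3065-3p passed the filter on low values largely through microglial libraries, and whether the counting separated the strands is not given in the sources used here.

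miR-219a-5p and miR-338-3p lie on different chromosomes, and their levels were compared across mice within each age and fraction, on log2 CPM. In 8W bulk cells they followed each other closely (Pearson r = 0.98, permutation p = 1e-05, the smallest that 100000 permutations can give, adjusted p = 0.00018 over 18 correlations; Spearman rho = 0.99, adjusted permutation p = 0.00018; n = 12), and r was 0.97 without the 2 libraries farthest from the median. In microglia r was 0.84 at P15 (adjusted permutation p = 0.00138, rho = 0.94 with adjusted p = 0.00018) and 0.89 at 8W (adjusted permutation p = 0.00138, rho = 0.88 with adjusted p = 0.00216), and 0.83 and 0.82 without the 2 farthest libraries. In P15 bulk cells r was 0.78 (permutation p = 0.00298, adjusted p = 0.0134, rho = 0.54 with p = 0.0754) and rested on 2 libraries, since it was 0.43 without them. At P6 r was 0.62 in bulk cells (permutation p = 0.0548, adjusted p = 0.123, rho = 0.67 with p = 0.0395) and 0.18 in microglia (permutation p = 0.618, rho = 0.04 with p = 0.919).

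**Figure D5:**
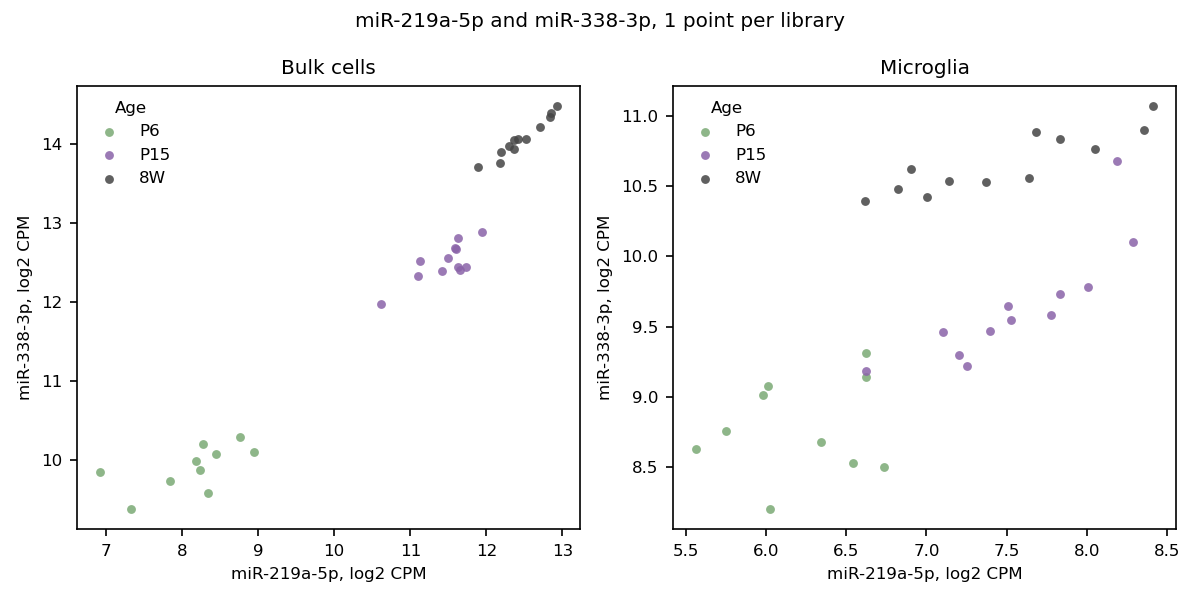
miR-338-3p against miR-219a-5p as log2 CPM, 1 point per library, in bulk cells (left) and microglia (right), coloured by age. In bulk cells the 3 ages do not overlap in miR-338-3p and r is 0.98 within 8W, and in microglia r is 0.84 within P15 and 0.89 within 8W.

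In microglia, the level of the neuronal list was compared with the same 2 miRNAs across mice. At 8W r was 0.66 for miR-219a-5p (permutation p = 0.0164, adjusted p = 0.0493, rho = 0.62 with adjusted p = 0.102) and 0.65 for miR-338-3p (permutation p = 0.0199, adjusted p = 0.0511, rho = 0.68 with adjusted p = 0.0644). Without the 2 farthest libraries both were 0.62 (permutation p = 0.059 and 0.0597). At P15 r was 0.32 and 0.37 (permutation p = 0.314 and 0.23, adjusted p = 0.515 and 0.414), and at P6 −0.29 and 0.13 (permutation p = 0.446 and 0.723, adjusted p = 0.669 and 0.813). Bulk and microglial levels of the same mouse were related for miR-338-3p at P6 (r = 0.76, permutation p = 0.011, adjusted p = 0.0396, rho = 0.77 with adjusted p = 0.0588), which rested on 2 libraries (r = 0.56 without them), and the other 5 such correlations had r from −0.03 to 0.56 with permutation p of 0.0957 or more.

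Across all 68 libraries, the miRNAs with the pattern most like miR-219a-5p were, besides members of the group, miR-138-1-3p (Pearson r of log2 CPM 0.932), miR-138-5p (0.926), miR-330-3p (0.924), miR-330-5p (0.919) and miR-7689-3p (0.913). Those most like miR-338-3p were miR-330-3p (0.948), miR-330-5p (0.945), miR-212-3p (0.929), miR-129-1-3p (0.918) and miR-129-2-3p (0.905). Among the 5 miRNAs themselves, miR-219a-5p had r of 0.98 with miR-219a-2-3p, 0.957 with miR-338-3p, 0.947 with miR-338-5p and −0.376 with miR-219a-1-3p. These values describe differences between fractions and ages that all libraries share, and the libraries of a mouse are not independent. From P6 to P15 in bulk cells, miR-138-1-3p was called (4.97-fold higher, log2 fold change 2.31 ± 0.15, adjusted p = 2.79e-11). The others outside the group were not, among them miR-330-3p (1.28 ± 0.14, adjusted p = 0.388) and miR-212-3p (1.34 ± 0.14, adjusted p = 0.198). All outside the group were called higher in bulk cells from P6 to 8W, where 13.2% of features were. Their log2 fold changes ran from 1.42 (miR-138-5p) to 3.27 (miR-129-1-3p). At 8W each was called lower in microglia than in bulk cells (−2.07 for miR-212-3p to −3.23 for miR-138-1-3p), where 23.7% of features were. Of their microglia to bulk ratios, only that of miR-330-3p was called from P6 to 8W (−1.66 ± 0.24, adjusted p = 0.0326).

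A list of 16 further miRNAs tied to the oligodendrocyte lineage in earlier work was read alongside, and all 16 were tested. It held 6 products of the miR-17-92 cluster (miR-17-5p, miR-18a-5p, miR-19a-3p, miR-19b-3p, miR-20a-5p and miR-92a-3p), miR-23a-3p and miR-27a-3p, which share a cluster, and miR-7a-5p, miR-9-5p, miR-32-5p, miR-125a-3p, miR-138-5p, miR-145a-5p, miR-204-5p and miR-212-3p. miR-138-5p is also on the neuronal list, and miR-145a-5p on that of mural cells and fibroblasts. In bulk cells from P6 to 8W, 5 rose, 7 fell and 4 were not called, where 13.2% of all features rose and 12.4% fell, and their median log2 fold change was −0.85 against 0.32 over all features. Of the 7 that fell, 6 were the miR-17-92 products, so count and median rest largely on these. Of them, miR-19b-3p and miR-92a-3p each had 2 entries in the count table, so their counts cannot be assigned to 1 locus. The largest rises were those of miR-212-3p (8-fold, 3.0 ± 0.14, adjusted p = 8.03e-21), miR-145a-5p (3.77-fold, 1.91 ± 0.27, adjusted p = 0.00304) and miR-27a-3p (2.98-fold, 1.57 ± 0.13, adjusted p = 8.08e-05). The largest falls were those of miR-18a-5p (12.2-fold, −3.61 ± 0.12, adjusted p = 2.51e-29), miR-17-5p (7.26-fold, −2.86 ± 0.14, adjusted p = 1.29e-19) and miR-20a-5p (5.9-fold, −2.56 ± 0.14, adjusted p = 2.11e-15), members of the miR-17-92 cluster, which is known to promote the proliferation of precursor cells. miR-18a-5p stood at 1247 to 2404 CPM in P6 bulk cells, 627 to 1131 CPM at P15 and 78.3 to 142 CPM at 8W. Its falling levels at the 3 ages did not overlap.

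From P6 to P15 in bulk cells, the log2 fold changes of the 16 ran from −1.22 to 1.34 with adjusted p of 0.119 or more (median −0.60), beside a median of 2.92 for the 5 miRNAs of the miR-219 and miR-338 hairpins. In microglia against bulk cells at 8W, 8 of the 16 were called higher and 2 lower (median log2 fold change 1.07), where 21.2% of all features were called higher and 23.7% lower (median −0.10), beside a median of −3.40 for the 5. The 8 called higher were the 6 miR-17-92 products, miR-23a-3p and miR-27a-3p. These differences between the lists were not tested. miR-17-5p was 9.38-fold higher in 8W microglia (3.23 ± 0.12, adjusted p = 6.74e-26) and miR-212-3p 4.18-fold lower (−2.07 ± 0.12, adjusted p = 3.81e-12).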

How the data were processed

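Small RNA was sequenced from CD45+ microglia and CD45- bulk cells of each mouse. Per the study's methods and the submitters' processing notes, the authors trimmed reads with fastp 0.20.0, matched them to miRBase and GRCm38 with miRDeep2 and deposited raw counts per miRNA entry, with 2029 entries under 1885 names. Here, the entry with the largest total was kept for each name. Features with at least 1 CPM in 5 libraries (1072) were tested with limma-voom (limma 3.58.1, edgeR 4.0.16 for TMM, R 4.3.3), 12 groups of age, sex and fraction and mouse as a random effect, and TREAT at a log2 fold change of 1 and a false discovery rate of 0.05. The pairing comes from both libraries of a mouse (mean correlation of deviations 0.0739, other mice −0.0154). Replicates are separate mice. The study's methods state that 1 mouse was removed as an outlier in multidimensional scaling, and P6 female mouse 6 was taken to be that mouse and left out, because it is missing from the 34 mice of the source data. Arm ratios (0.5 added to counts) and correlations were tested with exact or 100000-fold permutation tests, two-sided. DESeq2 1.42.0 served as an alternative. Code was tested on simulated data. The members and lists were chosen with earlier results of these data known. Named are the 5 members, opposite-strand miRNAs, the 3 largest rises and falls of the lineage list in bulk cells from P6 to 8W, and the 5 features most correlated with miR-219a-5p or miR-338-3p. miR-138-5p, miR-92a-3p, miR-194-5p and miR-128-3p among names with 2 entries, and miR-17-5p and miR-212-3p between fractions, were picked after their values were seen. Loci and sequences come from RefSeq GRCm38.p6 and its annotation.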

Additional observations from a re-analysis of the deposited data

Results flagged for a closer look

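The microglial library of P6 female mouse 6, which was left out of the main comparisons, held more of all 5 miRNAs than any other P6 microglial library. miR-219a-5p was at 221 CPM (highest of the others 133), miR-219a-2-3p at 556 CPM (230), miR-338-3p at 706 CPM (684), miR-338-5p at 133 CPM (117) and miR-219a-1-3p at 13.1 CPM (11.4). The bulk library of this mouse lay within the P6 range for all 5, so that microglial levels were 69.6% of bulk levels for miR-219a-5p and 114% for miR-219a-2-3p. In the same mouse the neuronal list in microglia was at 51.1% of its bulk level, above the 24.2% to 47.4% of the other P6 mice, and the myeloid list stood at 8193 CPM in microglia, below their 18586 CPM. The part of these lists in the result was not tested.

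A pair of bulk libraries stood apart from the other 5 male P15 libraries, in 60 such tests, of which chance alone gives about 1 in 20. P15 male mouse 6 had 0 counts of miR-219a-1-3p (log2 CPM −3.23, next 0.66). P15 male mouse 4 had 9703 CPM of miR-338-3p (log2 CPM 12.88, next 12.56).

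The change with age differed between microglia and bulk cells by the interaction term. From P6 to P15 the log2 difference was −1.98 for miR-219a-5p, −1.75 for miR-338-3p and −1.92 for miR-338-5p. From P6 to 8W it was −3.04 for miR-219a-5p, −2.44 for miR-219a-2-3p, −2.29 for miR-338-3p and −2.44 for miR-338-5p. Microglia and bulk cells come from the same mice and were both scaled by TMM.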

How the results depend on the processing

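Over 60 log2 fold changes of the 5 miRNAs, outside the comparisons of the sexes, 567 of 642 alternative values kept direction and side of the threshold. Leaving out each mouse in turn kept 2015 of 2040. The cause of the changes below was not tested, except that dropping the 2-fold requirement admits smaller changes.

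Without that requirement (limma, then edgeR, then DESeq2 where called), microglia against bulk cells at P6 passed for miR-338-3p (−1.11, −1.12, −1.09) and miR-338-5p (−0.58, −0.58, −0.59). Bulk cells from P6 to P15 passed for miR-219a-1-3p (−1.80, −1.54, −1.43), and from P15 to 8W for miR-219a-5p (1.0, 1.0, 0.83), miR-338-5p (1.22, 1.22, 1.04), miR-219a-2-3p (0.44, 0.46) and, by DESeq2, miR-219a-1-3p (−0.84). Microglia from P6 to P15 passed for miR-219a-5p (1.36, 1.38, 1.40), miR-219a-1-3p (−0.95, −0.95, −0.94), miR-338-3p (0.83, 0.85, 0.87) and miR-338-5p (1.0, 1.04, 1.06). From P15 to 8W they passed for miR-338-3p (1.03, 0.99, 0.96), miR-338-5p (0.71, 0.66, 0.64) and, by edgeR and DESeq2, miR-219a-1-3p (−0.85, −0.89), and from P6 to 8W for miR-219a-5p (1.30, 1.36, 1.36) and miR-219a-1-3p (−1.76, −1.80, −1.83). The microglia to bulk ratio passed from P6 to P15 for miR-219a-2-3p (−1.66, −1.66, −1.57), and from P15 to 8W for miR-219a-5p (−1.06, −1.07, −0.88), miR-219a-2-3p (−0.77, −0.78), miR-338-3p (−0.53, −0.54, −0.43) and miR-338-5p (−0.52, −0.52). The number of features called rose over 1.5 times in all 12 comparisons, from 17 to 481 with TREAT to 269 to 813, 236 to 784 and 235 to 773.

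Scaling to library size alone ended the calls of miR-338-3p in bulk cells from P15 to 8W (1.09) and of miR-219a-2-3p (1.17) and miR-338-5p (1.25) in microglia from P6 to 8W, called miR-219a-1-3p there (−2.23) and turned miR-219a-2-3p in bulk cells from P15 to 8W (−0.03). Including P6 female mouse 6 gave 1.40 (not called) for miR-219a-2-3p and −1.91 (called) for miR-219a-1-3p in microglia from P6 to 8W, and summing the entries gave 1.54 and −1.85. miR-219a-5p in microglia from P15 to 8W turned to 0.03 with no filter and with the stricter filter, 0.15 with summed entries and 0.82 with the smaller entry. The smaller entry also moved the calls of −1.35 (P6 microglia against bulk cells), 2.01 (bulk cells, P15 to 8W) and 1.50 (microglia, P6 to 8W). With no filter the ratio of miR-219a-5p from P6 to P15 was −2.02 (adjusted p = 0.0532). DESeq2 size factors gave 0.00 for miR-219a-1-3p between the fractions at 8W. Leaving out the replicate block changed no call (miR-219a-5p between the fractions at 8W was −4.97 with no block). Mouse as a fixed block was fitted only for differences between the fractions and for their change with age, and changed no call there.

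Leaving out single mice gave −0.15 to 0.44 for miR-219a-1-3p between the fractions at P15 (below 0 without P15 male mouse 6), −0.25 to 0.10 at 8W and −0.59 to 0.13 for its ratio from P15 to 8W. It gave −0.14 to 0.07 for miR-219a-5p in microglia from P15 to 8W and 1.55 to 1.88 for miR-219a-2-3p from P6 to 8W.

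Among differences between the sexes, none of which was called, signs turned for miR-219a-5p in P6 bulk cells (−0.04 by edgeR, −0.05 with the smaller entry, single mice −0.28 to 0.41) and P6 microglia (−0.11 with the smaller entry). They turned for miR-219a-2-3p in P6 bulk cells (−0.07 by edgeR, −0.02 by DESeq2, single mice −0.32 to 0.61), P6 microglia (−0.04, −0.01, −0.43 with P6 female mouse 6, single mice −0.27 to 0.32) and P15 microglia (single mice −0.13 to 0.24). For miR-219a-1-3p they turned in P15 bulk cells (0.02 by DESeq2, single mice −0.71 to 0.28), P6 microglia (−0.38 to 0.14), P15 microglia (−0.35 to 0.08) and 8W microglia (0.02 by edgeR, 0.06 by DESeq2, 0.05 with DESeq2 size factors, 0.08 by library size, 0.04 with no filter or summed entries, single mice −0.19 to 0.18). For miR-338-3p single mice gave −0.01 to 0.19 in P15 bulk cells and −0.04 to 0.11 in 8W microglia.

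Of the log2 arm ratios, miR-219a-2-3p over miR-219a-1-3p in bulk cells from P15 to 8W passed with 1 count added (0.87; single mice 0.74 to 1.20). miR-338-3p over miR-338-5p in bulk cells from P6 to 8W was 0.03 with P6 female mouse 6 (single mice −0.06 to 0.06). miR-219a-5p over miR-219a-2-3p in microglia from P6 to 8W no longer passed with that mouse (−0.31) or summed entries (−0.28), with summed entries it passed from P15 to 8W (0.57), and it was 0.12 between the fractions at P6. Without single mice, this ratio was −0.42 to −0.31 in microglia and 0.19 to 0.34 in bulk cells from P6 to 8W and −0.37 to −0.22 in bulk cells from P6 to P15. miR-338-3p over miR-338-5p in microglia was 0.13 to 0.20 from P6 to 8W and −0.20 to −0.12 from P6 to P15, and the ratio of the miR-219a-5p entries was 0.18 to 0.30 in microglia from P6 to 8W.

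Without the 2 farthest libraries, r of miR-219a-5p with miR-338-3p in P15 bulk cells was 0.43, the neuronal list with miR-219a-5p 0.22 at P6 and 0.62 at 8W, and bulk with microglial levels 0.56 (miR-338-3p, P6), −0.07 (miR-219a-5p, P15) and −0.19 (miR-338-3p, P15). With P6 female mouse 6, the neuronal list with miR-219a-5p at P6 was 0.42 and bulk with microglial miR-338-3p 0.45. By library size alone, r was 0.79 for miR-219a-5p with miR-338-3p in P6 bulk cells, −0.31 at P6 and 0.77 at 8W for the neuronal list with miR-338-3p, and −0.04 for bulk with microglial miR-338-3p at 8W. Depth limits miR-219a-1-3p and the opposite-strand miRNAs, whose counts approach the floor.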
